A study of Saccharomyces cerevisiae with 36 samples.

Results

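The genes described here are 45 assembly factors of the large ribosomal subunit of budding yeast, Saccharomyces cerevisiae. They are proteins that help to fold, process, check or export the precursor of the large subunit and that leave before it is mature. They were chosen by name as such factors, with earlier results of these data known. All 45 listed genes were measured, among 5656 genes with a symbol in the platform annotation. Each gene is represented by the probe set with the highest mean intensity over the arrays, and 2 members, SSF2 and NOG2, had a second probe set.

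The study followed gene expression in a continuous culture of yeast that passes through a repeating metabolic cycle. Total RNA was taken at 12 positions (time intervals about 25 min long, numbered 1 to 12) in 3 consecutive cycles and put on 36 Affymetrix arrays, 1 for each position of each cycle. The arrays of 1 position in the 3 cycles formed a group of 3, and the labels name no treatment, strain or separate culture. The p-values therefore rest on these arrays alone, in which cells of successive cycles share 1 source.

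Ribosomes of yeast are built mostly in the nucleolus. RNA polymerase I makes a long precursor RNA, which is cut into a small subunit and a large subunit part. The large subunit part is then bound by assembly factors in a rough order: early factors shape the RNA domains and hold the spacer between the 5.8S and 25S rRNA, a particle carrying 5S rRNA docks, energy-consuming enzymes drive remodelling, and late factors act in the nucleoplasm and travel with the particle to the cytoplasm. In yeast the genes of these factors are known for being expressed together with those of the small subunit processome, as a group called the ribosome biogenesis regulon.

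Each value is the intensity of a probe set as a multiple of the median of its array, so intensities show the course of a gene but not which of several genes has more mRNA. Because the samples were bulk RNA, a change in the share of cells that express a gene and a change in mRNA per cell cannot be told apart. On the log2 scale, 2 arrays taken at the same position correlated across genes at 0.976 in the median. The lowest such correlation was 0.833 at position 9 and 0.870 at position 8, the positions at which the members were highest. None of the 45 members had a value of 0 on any array, while 10 belonged to the dimmest 25% of the genes.

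The members followed similar courses. Their mean was lowest at position 2, stood between the extremes at positions 3 to 7, and was then highest on 1 array of each cycle. The mean log2 intensity over the 45 members was -0.84 ± 0.26 (SD, n = 3 arrays) at position 2, 0.02 ± 0.05 at position 3, 0.38 ± 0.14 at position 6 and 0.72 ± 0.17 at position 7. It reached 2.26 ± 1.00 at position 8 and 1.53 ± 1.51 at position 9, then stood at 0.33 ± 0.19 at position 10 and 0.75 ± 0.05 at position 12. The wide spread at positions 8 and 9 came with a shift of the highest array, which fell at position 9 in cycle 1 but at position 8 in the other cycles.

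**Figure D1:**
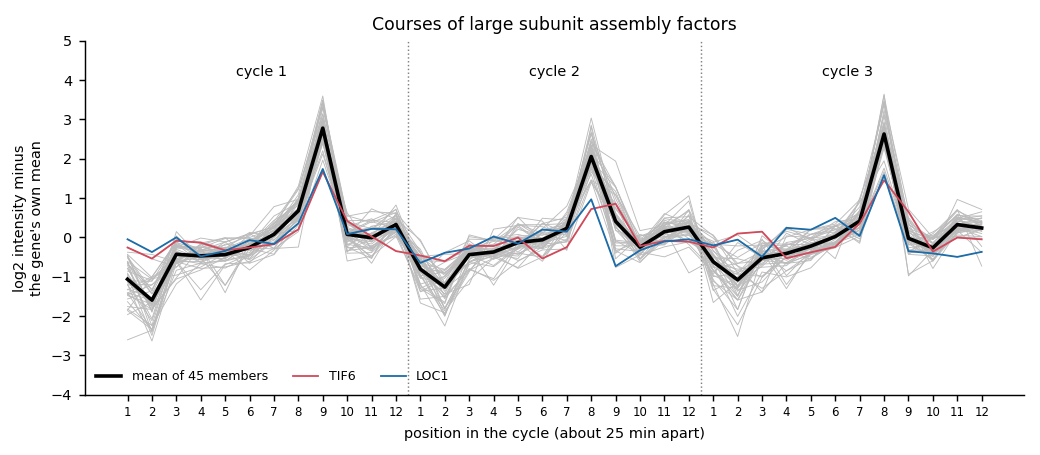
Course of each of the 45 members (grey lines), of their mean (black), and of TIF6 (red) and LOC1 (blue) over the 36 arrays. The vertical axis is log2 intensity minus the gene's own mean over all arrays, and the horizontal axis gives the position in each of the 3 cycles. The mean has its maximum at position 9 of cycle 1 and position 8 of the later cycles, and its minimum at position 2 in each cycle.

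A cosine with a period of 12 positions was fitted to each gene, and limma's moderated F test with Benjamini-Hochberg adjustment over all 5656 genes was used to call a gene cycling at an adjusted p of 0.05. Spread in this test was taken about the fitted cosine, so it included departures from that shape. All 45 members were called cycling, where 78.8% of all genes were. The swing, which is the fitted difference between peak and trough in log2, was at least 1 (at least 2-fold) in 43 members, against 38.1% of all genes. The median swing was 1.86 for the members and 0.77 for all genes tested. The members below a 2-fold swing were LOC1 at 0.67 ± 0.22 (SE) and TIF6 at 0.86 ± 0.20. The fitted peaks of the 45 members lay between position 7.71 for LOC1 and position 9.21 for NOC3. The cosine fitted to the mean of the members within each cycle had a swing of 1.82 ± 0.30 (SD, n = 3 cycles) and a peak at position 8.39 ± 0.30.

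The height of the burst was tested as the mean of positions 8 and 9 minus the mean of positions 3 to 6, in a limma fit with 12 positions. All 45 members were higher at positions 8 and 9, where 32.7% of all genes were. Of these, 43 were higher by at least 2-fold, against 12.7% of all genes. The median difference was 1.71 in log2, or 3.27-fold, while the median over all genes was 0.01. The members under 2-fold were LOC1, with a difference of 0.65 ± 0.23 (SE), and SSF2, with 0.92 ± 0.23. Since each cycle had its highest array at only 1 of the positions 8 and 9, this difference averages the highest array with a lower one, which in cycle 2 was within 2-fold of it for 9 members.

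Within single cycles the burst was steeper than that average. The highest array of a member was 7.70 times the median of its 12 arrays in cycle 1, 4.54 times in cycle 2 and 6.62 times in cycle 3 (medians over the members), where the same ratio had a median of 1.65, 1.64 and 1.70 over all genes. The log2 step from the array before into the members' highest array had a median of 2.09, 1.79 and 2.14 in the 3 cycles. On that array all 45 members stood above all 6 of their arrays at positions 1 to 6 in each cycle, as did 36.2%, 28.1% and 32.9% of all genes. The array was picked as the one with the highest mean of the members, so this count and the steps around it are a description. When the highest array of each cycle was left out, a choice made after the data were seen, 43 members were still called cycling, against 75.3% of all genes, and LOC1 and NOP53 were not. With those 33 arrays 30 members had at least a 2-fold swing, against 31.1% of all genes, and 35 were higher at positions 8 and 9 than at positions 3 to 6, against 22.1% of all genes.

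**Figure D2:**
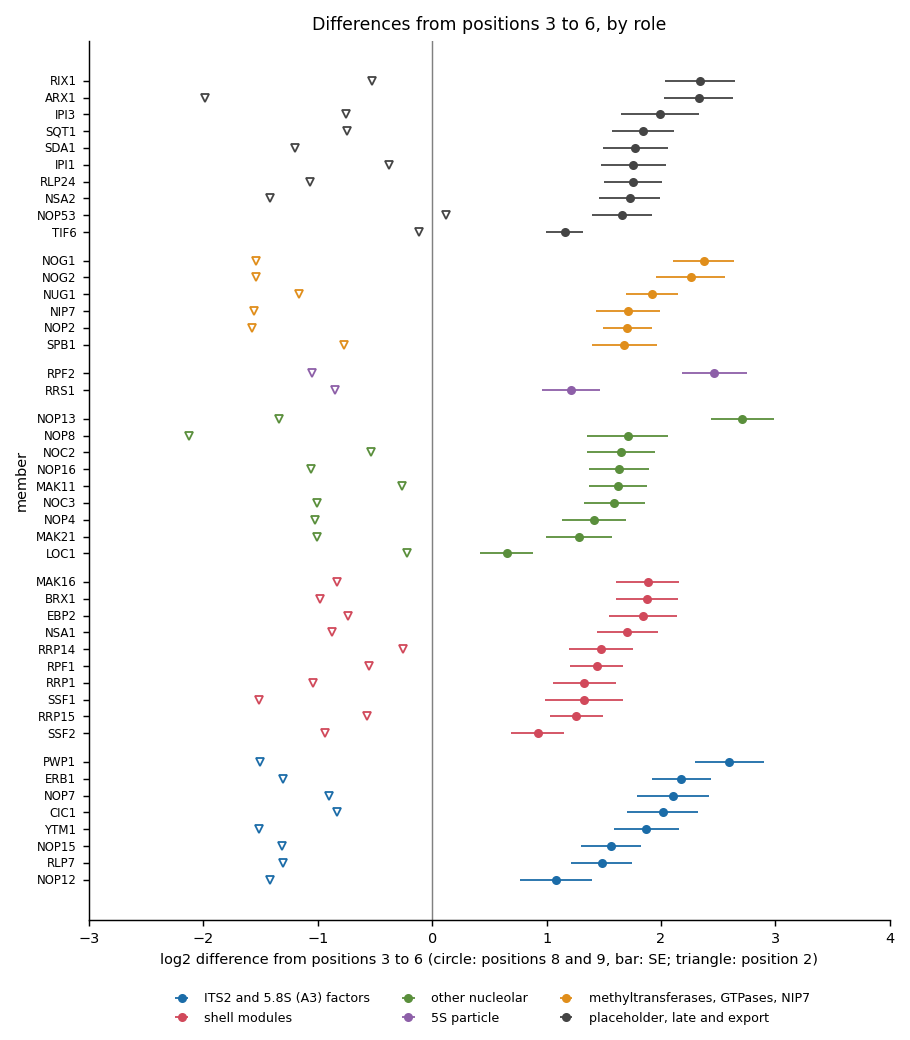
Log2 difference from positions 3 to 6 for each of the 45 members, in 6 groups by role. Circles give the mean of positions 8 and 9 with the SE of the limma fit (36 arrays), and open triangles give position 2. The circles run from 0.65 for LOC1 to 2.71 for NOP13, and 44 of the 45 triangles lie below 0.

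The first group by role holds 8 factors around the internal spacer and the 5.8S rRNA, often called A3 factors after a cleavage site. All 8 were called cycling with at least 2-fold swing, with a median of 2.06, and all 8 were higher at positions 8 and 9. PWP1, a WD-repeat protein of early large subunit particles, had the largest swing in this group, 2.69 ± 0.38 (SE). At positions 7, 8, 9 and 10 its intensity was 1.86, 3.88, 19.2 and 1.53 in cycle 1, then 2.09, 9.89, 3.11 and 1.23 in cycle 2, and 2.03, 19.4, 2.02 and 1.5 in cycle 3. Its 3 arrays at position 2 read 0.262, 0.385 and 0.395. One array per cycle was thus far above its neighbours, position 9 of cycle 1 or position 8 of the later cycles.

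NOP12, an RNA-binding protein that assists folding of the 5.8S rRNA region, had the smallest swing of this group, 1.51 ± 0.34. Its intensity at positions 7 to 10 was 0.411, 0.422, 3.81 and 0.501 in cycle 1, 0.557, 2.29, 0.469 and 0.450 in cycle 2, and 0.531, 3.00, 0.365 and 0.508 in cycle 3. Its burst filled 1 array, and the arrays on both sides of it were within the range of positions 3 to 6 or a little below. Without the highest arrays its difference at positions 8 and 9 was -0.26 ± 0.17 with an adjusted p of 0.233, so its call as higher rested on those 3 arrays.

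NOP7, ERB1 and YTM1 form a stable trimer that is needed to process the spacer. Their differences at positions 8 and 9 were 2.11 ± 0.32, 2.18 ± 0.25 and 1.87 ± 0.28 in log2, and their courses correlated with each other at 0.91 to 0.96 over the 36 arrays. CIC1 and NOP15, which bind the spacer RNA, had differences of 2.01 ± 0.31 and 1.56 ± 0.26. RLP7, a relative of ribosomal protein L7 that also binds the spacer, had a difference of 1.48 ± 0.27.

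The second group holds 10 proteins that build the outer shell of the early particle. All 10 were called cycling and higher at positions 8 and 9, with a median difference of 1.46, and 9 of them passed 2-fold in that difference. NSA1, RPF1, MAK16 and RRP1 make up 1 module on the solvent side of the particle. Their differences were 1.71 ± 0.26, 1.44 ± 0.23, 1.88 ± 0.27 and 1.33 ± 0.27, and their 6 pairwise correlations ran from 0.86 to 0.95. EBP2 and BRX1, which act together in the early particle, had differences of 1.84 ± 0.30 and 1.88 ± 0.27.

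BRX1 had the largest swing of the shell proteins, 2.06 ± 0.31. The 4 arrays from position 7 to position 10 read 3.73, 5.12, 22.4 and 4.25 in cycle 1, 3.46, 12.1, 7.52 and 2.89 in cycle 2, and 3.29, 20.7, 2.35 and 3.11 in cycle 3. In cycle 2 it was still high on the array after its peak, at 0.621 of the peak value, while in cycle 3 it had returned to the level of position 6 or below within 1 interval.

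SSF1 and SSF2 are paralogous genes whose products work with RRP14 and RRP15. SSF1 read 0.930, 1.79, 5.92 and 0.981 at positions 7 to 10 of cycle 1, 1.13, 5.88, 0.493 and 0.629 in cycle 2, and 1.74, 6.63, 0.431 and 0.562 in cycle 3. In cycles 2 and 3 the array after its peak was below every one of its arrays at positions 3 to 6 of that cycle. SSF2, with the smallest swing of the shell proteins at 1.20 ± 0.24, read 0.609, 0.844, 3.11 and 0.843 in cycle 1, 1.04, 2.15, 0.560 and 0.803 in cycle 2, and 0.737, 2.43, 0.684 and 0.840 in cycle 3. Both genes peaked on the same arrays, and the peak of SSF2 stood less far above its other arrays.

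The difference of the log2 values of SSF1 and SSF2 itself had a swing of 0.85 with its maximum at position 7.02 (permutation test of the cosine fit, p = 0.00669, 36 arrays, 100000 resamples). That is a comparison of courses, in which each gene's level is set against its own mean. With the second probe set of SSF2 the swing of the difference was 1.35 (permutation p = 0.00027). That probe set is dim. It read 0.108, 0.030 and 0.129 at position 2, near the pseudocount of 0.0516, so the size of that swing depends on the pseudocount. With the main probe set and without cycle 1 the swing was 0.76 (permutation p = 0.0825, 24 arrays), no longer past the threshold. The main SSF2 probe set carries a suffix that marks a family of similar sequences and the second one a suffix that marks an incomplete probe set, so the values of SSF2 are uncertain. RRP14 and RRP15 had differences of 1.48 ± 0.28 and 1.26 ± 0.23 at positions 8 and 9, and the courses of SSF1, RRP14 and RRP15 correlated at 0.87 to 0.89.

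**Figure D3:**
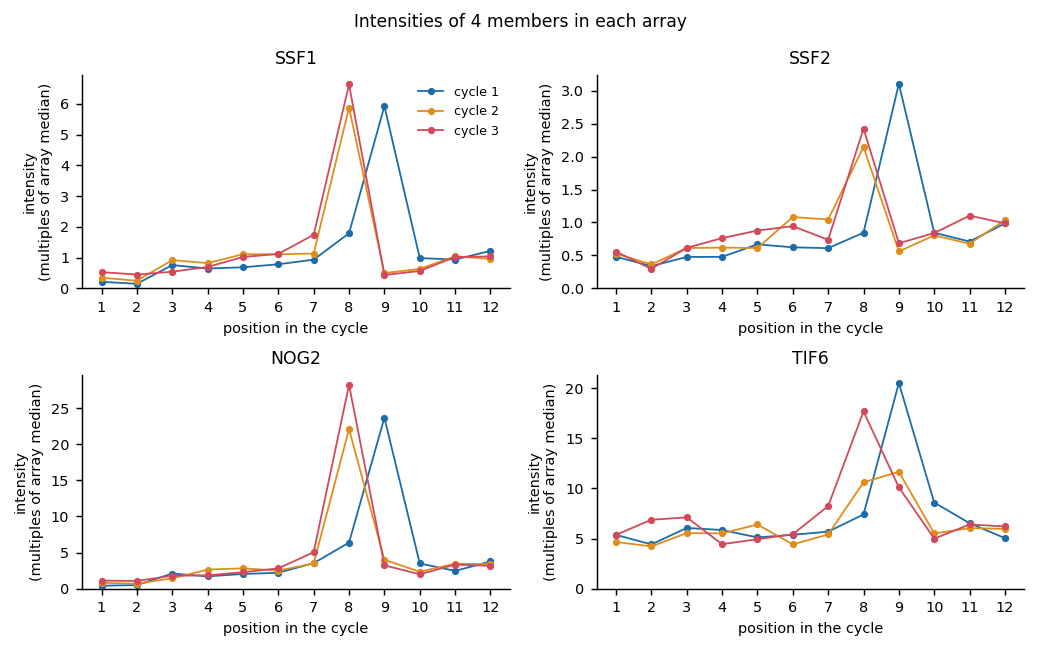
Intensity in multiples of the array median (vertical axes start at 0 and differ between panels) against position in the cycle for SSF1, SSF2, NOG2 and TIF6, with 1 line for each of the 3 cycles. In cycle 1 all 4 genes are highest at position 9. In cycle 2 TIF6 is highest at position 9 and the other 3 at position 8, and in cycle 3 all 4 are highest at position 8.

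The third group holds 9 other nucleolar factors. All 9 were called cycling and higher at positions 8 and 9, 8 of them by at least 2-fold. NOP13, a nucleolar RNA-binding protein, had the largest difference of all 45 members, 2.71 ± 0.28, or 6.55-fold. At positions 7 to 10 it read 1.89, 2.89, 17.2 and 1.89 in cycle 1, 1.63, 7.77, 5.83 and 1.68 in cycle 2, and 1.70, 14.5, 1.75 and 1.47 in cycle 3. Its burst covered both positions 8 and 9 in cycle 2, and a single array in cycles 1 and 3.

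LOC1 had the smallest swing and the smallest difference of all members. Its product is a nucleolar RNA-binding protein needed for large subunit assembly, and it is also known for its part in localising the ASH1 mRNA to the bud. At positions 7 to 10 it read 4.02, 5.81, 15.2 and 4.79 in cycle 1, 5.01, 8.89, 2.70 and 3.59 in cycle 2, and 4.64, 13.6, 3.54 and 3.40 in cycle 3. At position 2 it read 3.48, 3.44 and 4.34, close to its values at positions 3 to 6, which ran from 3.20 to 6.40. It thus shared the burst array of each cycle with the other members, while its difference at position 2 was -0.22 ± 0.29 and did not pass the test (adjusted p = 0.664). Its lowest arrays were at positions 4, 9 and 11 in the 3 cycles. Its correlation with the mean of the other members over 36 arrays was 0.79, the lowest of the 45.

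NOC2, NOC3 and MAK21 form exchanging complexes in which NOC2 pairs with MAK21 in early particles and with NOC3 in later ones. Their differences at positions 8 and 9 were 1.65 ± 0.30, 1.59 ± 0.27 and 1.28 ± 0.29. NOC2 correlated with MAK21 at 0.92 and with NOC3 at 0.87, both within the range over all member pairs. NOP4 and NOP8, RNA-binding proteins of the earliest large subunit particles, had differences of 1.41 ± 0.28 and 1.71 ± 0.35. NOP8 read as low as 0.0416, 0.0955 and 0.0308 at position 2 and as high as 3.84, 3.36 and 5.84 on the burst arrays, which made its fold over the median the largest of any member in cycle 3, 15.1. NOP16 and MAK11, constituents of the pre-large-subunit particle, had differences of 1.63 ± 0.26 and 1.62 ± 0.25.

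RPF2 and RRS1 bring the 5S rRNA and its ribosomal proteins to the particle. RPF2 read 2.37, 4.42, 23.5 and 1.98 at positions 7 to 10 of cycle 1, 2.79, 13.1, 3.20 and 1.77 in cycle 2, and 2.98, 23.3, 3.42 and 2.05 in cycle 3. RRS1 read 1.16, 1.92, 6.36 and 0.850 in cycle 1, 1.65, 4.04, 0.888 and 0.713 in cycle 2, and 1.77, 6.00, 1.11 and 0.880 in cycle 3. Although the proteins work as a pair, the difference at positions 8 and 9 was 2.47 ± 0.28 for RPF2 and 1.21 ± 0.25 for RRS1. Whether these differ was not tested. Their courses correlated at 0.90, which was also the median over the 990 pairs of members.

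The next group holds 6 members, the GTPases and methyltransferases with their partner NIP7, which are together called the enzymes below. Their median swing was 1.98, and all 6 were higher at positions 8 and 9 by at least 2-fold. NOG1, NOG2 and NUG1 are GTPases that act as switches in remodelling, and their differences were 2.37 ± 0.26, 2.26 ± 0.30 and 1.92 ± 0.23. NOG2 read 3.52, 6.38, 23.7 and 3.48 at positions 7 to 10 of cycle 1, 3.48, 22.1, 3.99 and 2.34 in cycle 2, and 5.04, 28.3, 3.22 and 1.98 in cycle 3. Its second probe set had its maximum on the same arrays, with 7.60, 8.21 and 12.3.

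NOP2 and SPB1 methylate the 25S rRNA, and NIP7 binds the early particle next to NOP2 and NOP8. SPB1 had the smallest swing of these enzymes, 1.59 ± 0.32. It read 0.556, 0.837, 5.06 and 0.680 at positions 7 to 10 of cycle 1, 0.792, 2.41, 0.729 and 0.496 in cycle 2, and 0.701, 4.38, 0.591 and 0.464 in cycle 3. The differences at positions 8 and 9 were 1.68 ± 0.28 for SPB1, 1.70 ± 0.21 for NOP2 and 1.71 ± 0.28 for NIP7, and NOP2 and NIP7 correlated at 0.93.

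The last group holds 10 placeholder, late nuclear and export factors, and all 10 were higher at positions 8 and 9 by at least 2-fold. ARX1, a factor that accompanies the particle through the nuclear pore, had the largest swing of all 45 members, 2.73 ± 0.40. At positions 7 to 10 it read 1.41, 2.25, 13.4 and 1.24 in cycle 1, 1.52, 6.65, 2.99 and 0.991 in cycle 2, and 1.80, 13.7, 1.34 and 1.15 in cycle 3. Its position 2 arrays read 0.149, 0.210 and 0.215, below all 12 of its arrays at positions 3 to 6, of which the lowest was 0.563.

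TIF6, which keeps the large subunit from joining the small one too early and stays on it into the cytoplasm, is described for the shape of its burst. At positions 7 to 10 it read 5.68, 7.40, 20.5 and 8.59 in cycle 1, 5.40, 10.6, 11.7 and 5.50 in cycle 2, and 8.24, 17.7, 10.1 and 4.99 in cycle 3. In cycle 2 it was higher at position 9 than at position 8, while the other 44 members were lower there. After its peak in cycles 1 and 3 it kept 0.418 and 0.572 of the peak intensity, the highest shares of the 45 members in both cycles. Its arrays at position 2, 4.40, 4.21 and 6.87, overlapped those at positions 3 to 6. Its correlation with the mean of the others was 0.81.

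RLP24 holds the place of the ribosomal protein L24 and binds next to NOG1. It had a difference of 1.76 ± 0.25, followed the mean of the other members most closely of all 45 at a correlation of 0.99, and correlated with NOG1 at 0.98. NSA2 and NOP53, which act in spacer processing in the nucleus, had differences of 1.73 ± 0.27 and 1.66 ± 0.26. RIX1, IPI1 and IPI3 form a complex that acts in spacer removal and remodelling, with differences of 2.34 ± 0.30, 1.76 ± 0.28 and 1.99 ± 0.34 and pairwise correlations of 0.92 to 0.96. SDA1, a late nuclear factor, had a difference of 1.78 ± 0.28, and SQT1, a dedicated chaperone of the ribosomal protein L10, one of 1.84 ± 0.27.

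The order in which the factors act on the particle was compared with the timing of their mRNAs inside the burst. For each group by role the centre of the burst was taken as the intensity-weighted mean position over positions 7 to 10 in each cycle. The centres were 8.37 ± 0.34 for the A3 factors, 8.38 ± 0.31 for the shell proteins, 8.40 ± 0.31 for the other nucleolar factors, 8.33 ± 0.34 for the 5S particle factors, 8.39 ± 0.33 for the enzymes and 8.37 ± 0.34 for the late factors (SD, n = 3 cycles). Between early and late groups the centres differed by a small part of an interval: the late factors minus the A3 factors gave -0.004 ± 0.007 positions. The largest of the 15 differences, the 5S particle factors minus the other nucleolar factors, was -0.07 ± 0.07 positions. With 3 cycles the exact two-sided sign-flip test cannot give a p below 0.25, and the lowest of the 15 was 0.25, so no order in time could be shown between groups at intervals of about 25 min.

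Across the 990 pairs of members the correlation of log2 intensities over the 36 arrays had a median of 0.90 and ran from 0.61 to 0.98. The points share the 3 burst arrays, and without them the median over 33 arrays was 0.74, with a range from -0.19 to 0.95. Pairs that form a known complex lay between 0.86 and 0.98, a range that holds most pairs of members, since the interquartile range of all pairs ran from 0.86 to 0.93.

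The step out of the burst was taken cycle by cycle, with no test, since each cycle has 1 array per position. On the array after the highest one the members stood lower by a median log2 value of -2.76 in cycle 1, -1.66 in cycle 2 and -2.64 in cycle 3. In cycles 1 and 3, 42 and 39 members were lower by more than 2 in log2, and 0 and 1 by less than 1. In cycle 2, 14 members were lower by more than 2, and 9 by less than 1 or not at all.

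In cycle 2 the value on the next array ran from 0.0838 of the peak for SSF1 to 1.10 of it for TIF6. The members that kept the most included NOP13, MAK11, NOP2, BRX1 and NUG1, while SSF1, IPI3, IPI1, NOG2 and NOP8 were among the lowest. The group medians in cycle 2 lay between -2.07 for the 5S particle factors and -1.47 for the enzymes. The late factors ran from -3.36 to 0.14 and the shell proteins from -3.45 to -0.69, while the pair of 5S particle factors lay between -2.12 and -2.02. Across the 45 members the step down in cycle 2 correlated with that in cycle 1 at 0.26 (Spearman 0.15) and with that in cycle 3 at 0.47 (Spearman 0.28), while cycles 1 and 3 correlated at 0.66 (Spearman 0.55). These are correlations across genes, which are not independent replicates, and each cycle is 1 series of arrays.

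**Figure D4:**
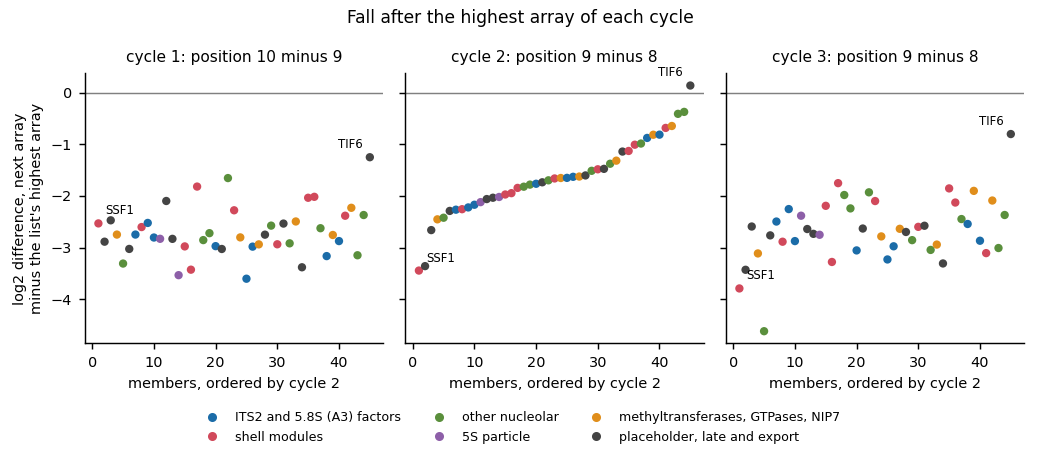
Log2 difference between the array after the members' highest array and that array in each cycle, 1 point per member, coloured by role and ordered in every panel by the value in cycle 2. In cycles 1 and 3 most points lie below -2, while in cycle 2 they run from -3.45 for SSF1 to 0.14 for TIF6.

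The fitted tests of differences between cycles called no member. For level, 0 of 45 members passed limma's test of a cycle term beside position (0.053% of all genes did), and 0 had an unadjusted p under 0.05, where 5.73% of all genes did, the lowest being 0.232. For swing, 0 of 45 passed the test of cycle by cosine terms (0.0354% of all genes did), and 0 had an unadjusted p under 0.05, where 4.61% of all genes did, the lowest being 0.101. The test of swing follows 1 smooth cosine per cycle, and the test of level compares the mean over 12 positions, so neither was built for a shift of a single high array by 1 position.

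Positions 3 to 6 also served as the reference for the level after the burst, so the differences for positions 11, 12 and 1 share those arrays with the differences for positions 8 and 9. At positions 11 to 1, 0 of 45 members were lower in limma's fit, where 27.2% of all genes were, and 0 were lower at an unadjusted p under 0.05, where 29.35% of all genes were. Higher were 4 members, where 27.8% of all genes were: RIX1 by 0.86 ± 0.27, NOP13 by 0.77 ± 0.24, NOC3 by 0.71 ± 0.24 and SQT1 by 0.65 ± 0.24. Without cycle 1, 11 members were called higher, without cycle 2 it was 0, and without cycle 3 it was 1. The members as a whole had a median difference of 0.15 at positions 11 to 1, 35 of 45 of them above 0, beside the median of 1.71 at positions 8 and 9. This span joins unlike positions: the mean over the members was 0.63 and 0.75 in log2 at positions 11 and 12 but -0.35 at position 1. Over positions 10 to 12 in its place, 10 members were called higher, where 29.7% of all genes were. They were NOP7, CIC1, PWP1, BRX1, NOG1 and ARX1 beside the same 4, and the median difference was 0.38.

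The low point at position 2 was examined after the values had been seen. The mean of the members was lowest at position 2 in each cycle. Taking the mean of the 3 arrays, 36 of 45 members were lowest there, against 14.5% of all genes. Relative to positions 3 to 6 the members stood at a median of -1.296, -1.002 and -0.922 in log2 in the 3 cycles, with 44, 45 and 42 of them below 0. In 29 members all 3 arrays of position 2 lay below all 12 arrays of positions 3 to 6, as in 6.24% of all genes, and in the other 16 the ranges overlapped.

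In limma's fit 25 members were called lower at position 2, where 7.66% of all genes were. Genes of related lists, described below, were called too. They were 11 of 15 ribosomal proteins of the large subunit, 18 of 38 processome genes and 5 of 11 genes of RNA polymerase I. Of 18 helicases 5 were called, of 25 other large subunit factors 7 and of 9 regulators 0. With the 1st and the 25th percentile as pseudocount 26 and 17 members were called. The largest difference was that of NOP8, -2.13 ± 0.46, followed by ARX1 with -1.98 ± 0.39 and NOP2 with -1.57 ± 0.27. NOP8 is among the dimmest 25% of genes and read 0.0416, 0.0955 and 0.0308 at position 2, near the pseudocount of 0.0516. The size of its difference thus depends on the pseudocount. NOP53 at 0.12 ± 0.34 was the single member above 0. Of the 6 in the group of enzymes 5 were called, of the 8 A3 factors 6 and of the 10 shell proteins 4. Of the 9 other nucleolar factors 5 were called, of the 5S particle factors RPF2, and of the 10 late factors 4. The count depended on single cycles: it was 34 without cycle 1, 1 without cycle 2 and 13 without cycle 3. The median difference moved little, from -1.01 to -0.89, -1.05 and -1.07, while the median SE moved from 0.35 to 0.21, 0.52 and 0.43. The fit shares 1 estimate of spread over all 12 positions, those with the moving burst included.

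A departure from a single cosine, tested by adding terms with a period of 6 positions, was called in 1 member, TIF6 (adjusted p = 0.0209), where 12.4% of all genes were called. The call was not made when any 1 cycle was left out. An unadjusted p under 0.05 was found in 2 members, TIF6 and NOP53, and in 27.4% of all genes. The test fits the same smooth terms to all cycles, so it was not built for a high array that shifts by 1 position. The low count among the members therefore does not show that their courses were close to a cosine.

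Genes that act beside the members in the same pathway were taken from lists of related factors. Beside their counts, 78.8% of all genes were called cycling and 32.7% were higher at positions 8 and 9. Of the small subunit processome, 37 of 38 genes were called cycling and all 38 were higher at positions 8 and 9, with a median difference of 1.84. NOP56, a core protein of box C/D particles, had the largest swing there, 2.73 ± 0.35, and UTP5 the next, 2.63 ± 0.43. RRP7 was the 1 not called cycling, with a swing of 0.64 ± 0.27 and an adjusted p of 0.089. Of 19 listed RNA helicases of ribosome assembly 18 were measured. All 18 were cycling and higher, with DBP3 at a swing of 3.25 ± 0.38 and DBP2 at 2.93 ± 0.45. Of RNA polymerase I and its factors 10 of 11 were cycling and 9 higher, with a median difference of 1.96, and RRN6 was not called cycling (0.40 ± 0.22, adjusted p = 0.241).

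Of 27 other large subunit factors listed 25 were measured. All 25 were cycling, and 24 were higher at positions 8 and 9. RSA1, a factor of large subunit assembly, was the exception: its fitted peak lay at position 5.19, and its difference was -0.33 ± 0.24. Ribosomal proteins of the large subunit belong to the stable product that the assembly factors help to build. Of 22 listed 15 were measured, and all 15 were cycling. Of these 15, 7 had a 2-fold swing, against 38.1% of all genes. Of the 15, 14 were higher at positions 8 and 9, against 32.7% of all genes. A difference of at least 2-fold there was found in 5, against 12.7% of all genes. Their median difference was 0.73. The cosine of their mean peaked at position 9.07 ± 0.13 (SD, n = 3 cycles), beside 8.39 ± 0.30 for the members. The mean of the ribosomal proteins was highest at position 9 in cycles 1 and 2 and at position 8 in cycle 3. Its highest array thus differed from that of the members in cycle 2 alone.

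Of 9 regulators of these genes 7 were called cycling and 3 were higher at positions 8 and 9. These shares were close to the 78.8% and 32.7% of all genes. Lower there was 1, STB3, by -0.47 ± 0.14, as were 1754 of all 5656 genes. TOD6, a repressor that binds the PAC element of these genes, had the largest swing, 1.89 ± 0.32. Its fitted peak lay at position 7.03, outside the 7.71 to 9.21 of the members, and its difference at positions 8 and 9 was 1.20 ± 0.29. A fitted peak can lie before the highest array. That of LOC1 was at 6.87 and 6.51 in cycles 2 and 3, with its highest array at position 8. DOT6, the paralog of TOD6, peaked at position 4.16 with a swing of 0.85 ± 0.17. IFH1, a coactivator of ribosomal protein genes, peaked at 8.10 with a swing of 1.32 ± 0.38. SCH9 and FHL1 were not called cycling (adjusted p = 0.576 and 0.371). RSA1, RRP7, RRN6, STB3, DOT6, SCH9 and FHL1 were singled out after their values had been seen.

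**Figure D5:**
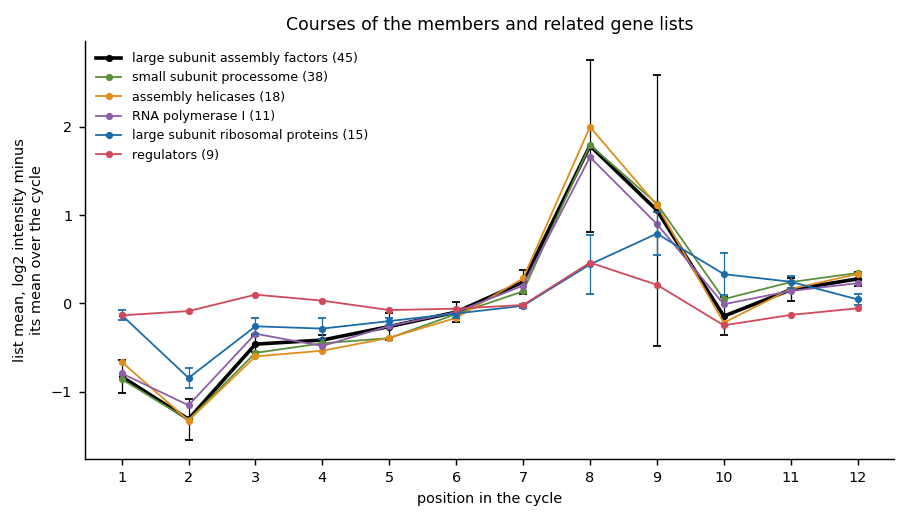
Mean log2 intensity of the 45 members and of related gene lists against position, each minus its own mean over the cycle and averaged over the 3 cycles; the bars are the SD over the 3 cycles for the members and for the large subunit ribosomal proteins. The members, the small subunit processome, the helicases and RNA polymerase I run close together, while the mean of the regulators varies less. The ribosomal proteins have a lower maximum, which is later in this average. In single cycles their highest array differed from that of the members in cycle 2 alone.

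The members lie on 14 chromosomes, and no 2 of them are neighbours in the gene order of the R64 assembly. There were 5 members next to a gene of another ribosome assembly list. The courses of these neighbours correlated at 0.93 for NSA2 with LCP5, 0.94 for RIX1 with UTP9, 0.88 for PWP1 with NOP56, 0.90 for RRP15 with NOC4 and 0.78 for SSF1 with RRP3 (36 arrays). These values lie within the range of 0.61 to 0.98 found among pairs of members that are not neighbours.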

How the data were processed

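RNA of each of the 36 samples was measured on 1 array. The deposited table gives 1 linear intensity per probe set, with the median of each array at 1. Summarisation and scaling of the probes by the authors are not given in the sources used here. A gene symbol was unique in the platform annotation, which can be old, for 6504 of 9335 probe sets. There were 328 with several symbols, and 2503 were not listed and are not named here. The R64 gene table was used for names and neighbours alone. Each of the 5656 genes was represented by its brightest probe set on average (315 genes had a second one).

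Values were taken as log2(intensity + 0.0516), with the 10th percentile of the positive values as pseudocount. Fold changes are on that scale and understate changes of dim genes. Tests used limma 3.58.1 in R 4.3.3 with the trend option of eBayes and were adjusted by Benjamini and Hochberg's method over all genes. Python 3.11.15, numpy 2.4.6, pandas 2.3.3 and matplotlib 3.10.9 did the rest. The number of arrays limits the precision.

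The members, the gene lists and the tests were chosen with earlier results of these data known. All members are named. Values on the arrays of positions 7 to 10 are given for the largest and the smallest swing of each role and for SSF1. Genes outside the list are named for the 2 largest swings of their list or where a result turns on them. The 2 largest swings were left unnamed for RNA polymerase I, the other large subunit factors and the ribosomal proteins. Alternatives covered scaling, pseudocount, dim genes, probe choice, the trend, the reference positions, a term for cycle, and each cycle left out.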

Additional observations from a re-analysis of the deposited data

Results flagged for a closer look

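The step of the members' mean log2 intensity from position 8 to position 9 went in opposite directions between cycles. It was 2.101 in cycle 1, where all 45 members were higher at position 9. It was -1.648 in cycle 2, where 44 members were lower and TIF6 was higher, and -2.651 in cycle 3, where all 45 were lower. With 1 array for each position of each cycle the difference between cycles was not tested, and the 45 members of 1 array are not replicates of it. Groups held 3 arrays, too few for a test of single outlying arrays.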

How the results depend on the processing

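For 18 results 164 alternatives were run, of which 153 kept the call or stayed within the limits set for a count or a value. A reversal of direction was not scored. The limits for counts were wide. A fall from 25 to 17 members lower at position 2, with the 25th percentile as pseudocount, was within them. So was a fall from 43 to 30 members with at least 2-fold swing, without the highest array of each cycle. Leaving out each cycle in turn moved the count of members lower at positions 11 to 1 between 0 and 1, where LOC1 was called lower without cycle 1, and the count higher there, 4, between 0 and 11. With positions 10 to 12 in their place, 10 members were higher. It moved the count of members with a 6-position component from 1 to 0 in every case, and the count lower at position 2 from 25 to between 1 and 34. The swing of the difference between SSF1 and SSF2 ran from 0.755 to 0.932 with a cycle left out, and lost its call without cycle 1. The cause was not tested, though each such fit has 24 arrays in place of 36. Leaving out the dimmest 25% of genes left 35 members to test.

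With cycle number as a replicate block, all 45 members were called cycling, 43 of them with at least 2-fold swing, and 23 were lower at position 2, beside 25 without it. Deviations from the position means correlated between arrays of 1 cycle at medians of -0.006, 0.014 and 0.041 (66 pairs each), with 24, 19 and 27 pairs above 0.1. Between arrays of different cycles and positions the median was -0.016 (396 pairs), with 93 pairs above 0.1. The medians were thus near 0, while pairs above 0.1 were somewhat more frequent within a cycle. Whether the cycles paired the arrays was not tested. With 1 array per position and cycle, a change that lasts less than an interval could not be resolved.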
